A study of Mus musculus with 54 samples.

Results

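Brain RNA of swum and unswum C57BL6 mice was compared on 8 expression arrays, the arrays labelled brain out of 54 in a series that covers 7 organs. The members were defined by their labels, and the comparison was chosen with earlier results of these data known. They were 4 arrays titled as controls 33 to 36 and 4 titled as swimming 37 to 40. Each was hybridised with biotin-labelled total brain RNA at 14 weeks of age. The swim group entered training at 11 to 12 weeks of age. Its daily sessions were lengthened in steps of 10 min over 9 days, followed by 3 weeks of 2 sessions a day of 90 min each, separated by 4 hours of rest. The controls carry the same genotype and age and the treatment label control; what they did during the sessions, the sex of the mice, the hour of tissue collection and the dissection of the brain are not given in the sources used here. Nor do the labels state that each array is a separate mouse, so that p-values measure the spread between these arrays.

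Swimming is an endurance exercise, and the brain takes part in it through motor control, blood flow, temperature and stress hormones. Exercise is known to act on neurotrophin signalling, on brain vessels and on the timing of the circadian clock, in which period and cryptochrome proteins repress their own activators. MicroRNAs are short RNAs cut from hairpin precursors and loaded into Argonaute proteins, where the seed at their 5′ end pairs with messenger RNAs. One of the largest microRNA clusters of mammals lies in the imprinted interval between Dlk1 and Dio3, is transcribed from the maternal chromosome together with the noncoding RNA Meg3, and is used mostly in brain and placenta.

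The label was checked against marker genes, given here and below as log2(signal + 16) after quantile normalization. Snap25, a synaptic protein of all neurons, lay between 13.9 and 14.1 on the 8 arrays, and Mog, a myelin protein, between 10.8 and 11.7. Snap25 is among the brightest probe sets, where quantile normalization gives every array the same values, so its levelness does not measure neuron content. Syt1, a synaptic vesicle protein, lay between 11.4 and 12.1, lowest on swim 40. Genes of liver, kidney and fat were near the floor, with Fabp1 at most 4.61, Umod at most 5.29 and Adipoq at most 4.81, but the liver gene Alb read 5.98 on swim 40 and 5.66 on control 34 against 4.53 to 4.89 on the others. Xist, a transcript of female cells, was near the floor on all 8 arrays, at 4.53 to 4.86. The Y-linked Eif2s3y read 8.80 to 9.30, the pattern of male tissue on each array. The arrays did not hold the same mix of regions. Gabra6, a GABA receptor subunit of cerebellar granule neurons, read 13.3, 13.1, 13.1 and 13.2 in controls 33 to 36 and 12.3, 13.1, 13.1 and 13.9 in swim 37 to 40. Cbln3, a secreted synapse organizer of the same neurons, read 11.0, 10.7, 10.8 and 10.9 in the controls and 9.91, 10.9, 10.8 and 11.8 in the swim arrays. Both were lowest in swim 37 and highest in swim 40, and their group differences were -0.09 and -0.01 on the log2 scale.

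Swim 40 stood apart from the other arrays. Its median correlation with the other 7 arrays was 0.942, against 0.977 to 0.986 for the others. Nrgn, a calmodulin-binding protein of forebrain neurons, read 6.49 there and 11.1 to 12.0 elsewhere, and Tbr1, a transcription factor of cortical projection neurons, read 5.11 there and 8.05 to 10.1 elsewhere. Ddn, a dendritic protein of the forebrain, read 5.21 there and 9.41 to 11.0 elsewhere. On swim 40 the mean of 16 cortical projection neuron genes was 7.95, against 8.83 to 9.59, and the mean of 15 cerebellar granule neuron genes was 11.2, against 9.69 to 10.5. Of the other arrays, swim 38 alone had a raised Drd1, the dopamine receptor of striatal neurons, at 9.61 against 5.93 to 6.29, and control 36 had the highest skeletal muscle genes (Acta1 at 8.75 against 5.99 to 7.05). Myh4, a myosin of fast muscle fibres, read 7.85 on control 36 and 6.63 on control 35, against 5.08 to 5.39 on the others. Counts of called genes in the groups below are also given without swim 40.

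**Figure D1:**
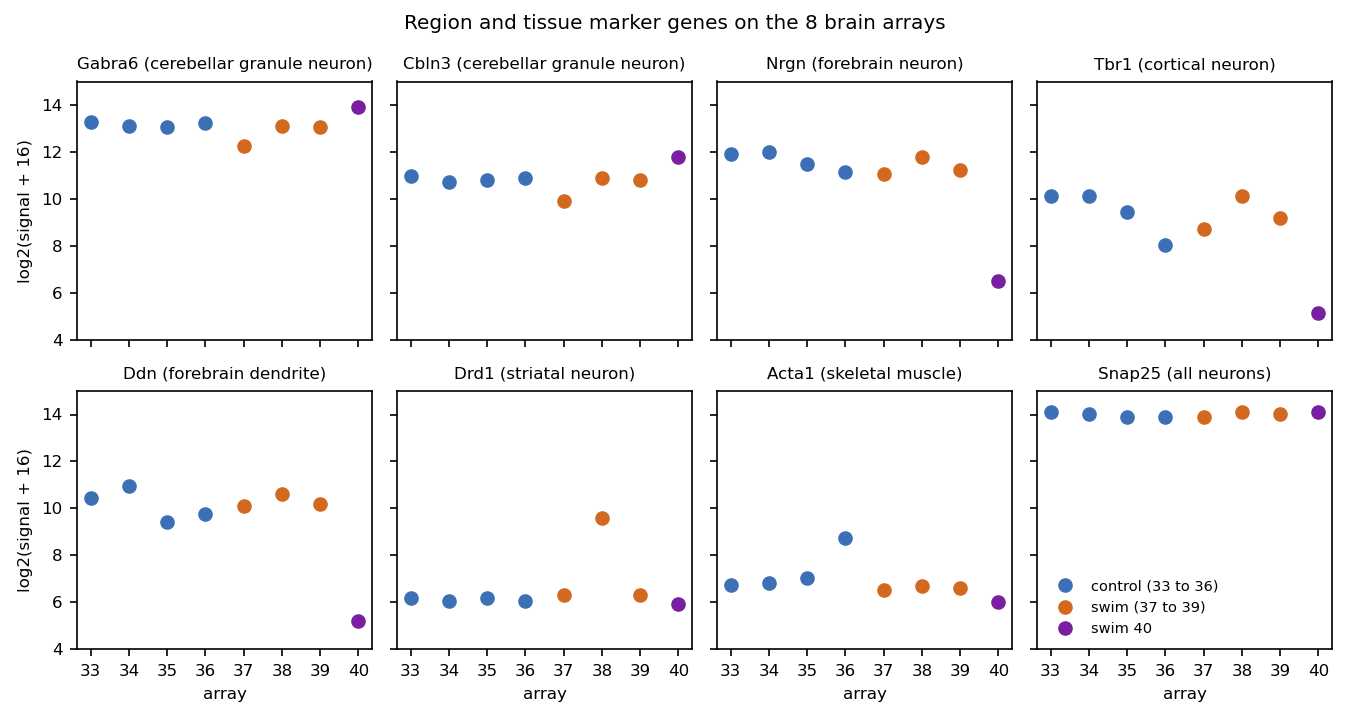
Log2(signal + 16) of 8 marker genes (panels) on each brain array (x axis, by the number in its title). Snap25 is so bright that quantile normalization alone makes it level. Swim 40 is low in Nrgn (6.49), Tbr1 (5.11) and Ddn (5.21) and highest in Gabra6 and Cbln3. Swim 38 alone has Drd1 at 9.61 and control 36 alone has Acta1 at 8.75.

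Few genes passed the adjusted test between swum and control brains, and most of those that passed were higher. Of 11621 genes tested with limma, 56 passed a Benjamini-Hochberg adjusted p under 0.05, which is 0.482% of all genes; 50 were higher after swimming (0.430%) and 6 were lower (0.0516%). At an unadjusted p under 0.05 there were 1898. The 50 higher genes were 20 microRNA genes, 7 long noncoding RNA genes, 1 gene of another noncoding class, 21 protein-coding genes and 1 symbol with no match in RefSeq; the 6 lower genes all code for proteins. The 4 swim arrays lay entirely above the 4 controls for 697 genes (6.00%) and entirely below for 704 (6.06%), and all 56 called genes were among these. This even split holds for quantile normalized values. Centred on array medians, 323 genes lay above and 1693 below, and on the values as deposited 64 and 210. Only 5 called genes changed at least 2-fold: the noncoding 9530091C08Rik, Phxr4, 1700086D15Rik and 2310067E19Rik, and Mir598.

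Without swim 40 there were 78 called genes (0.671% of all genes; 64 higher, 14 lower), of which 46 were also called with it. The count fell to 15, 18, 16 and 16 without control 33, 34, 35 or 36, to 22 without swim 38 and to 15 without swim 39. 15 of the 56 calls held in all 8 fits that leave out an array: Mir598, Lncpint, Mir543, Mir370, Mir380, Mir323, Mir679, Mir376b, Mir341, Mir329, Mir330, 1700086D15Rik, Tbrg3, Scube2 and Pcsk1n. With arrays centred on their medians in place of quantile normalization, 61 genes were called, 42 higher and 19 lower, so that 68.9% of calls were higher against 89.3%. On the values as deposited 3 were called, all higher, and the median of all genes moved from -0.02 to -0.20; differences below are read against that shift. Of 28 alternative fits, each of the 56 genes was measured in 27 or 28, and its direction was the same in all of these.

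**Figure D2:**
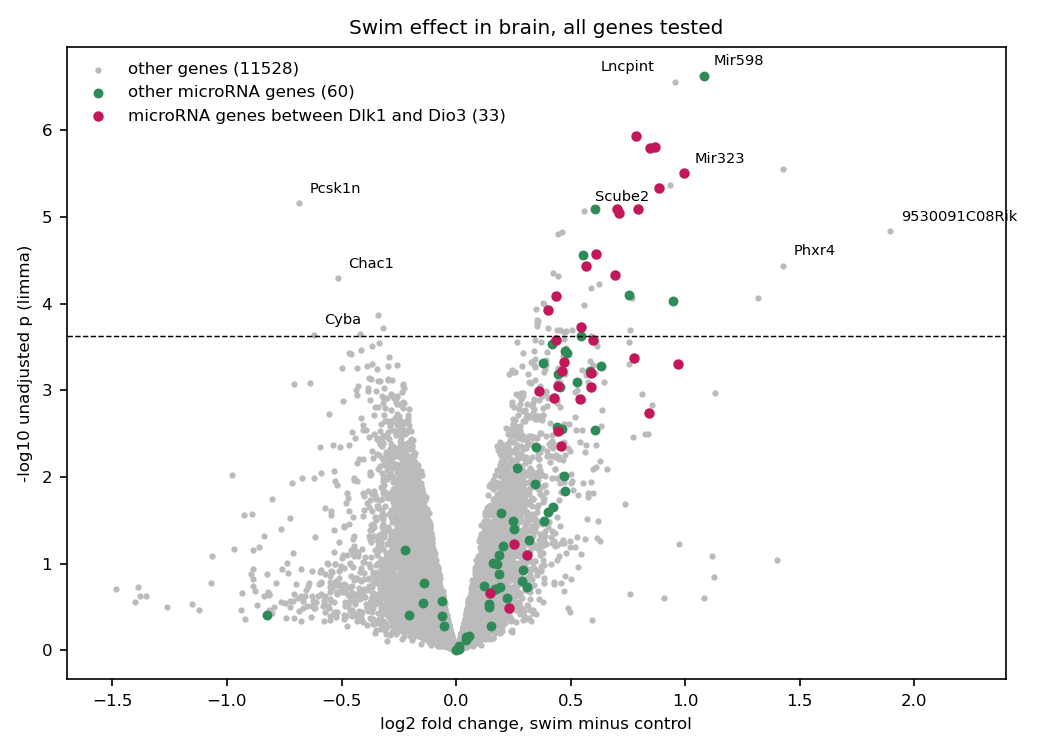
Each point is a gene tested in brain: the x axis is the log2 fold change, swim minus control, and the y axis is -log10 of the unadjusted limma p. Points above the dashed line passed an adjusted p of 0.05; red points are the 33 measured microRNA genes between Dlk1 and Dio3, which all lie right of 0, and green points are the 60 other microRNA genes.

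Of the 50 genes that rose in swum brain, 14 were microRNA genes of the imprinted Dlk1 to Dio3 interval on chromosome 12. The array holds 36 microRNA genes of the interval and 33 were above the filter on dim probe sets; Mir299a, Mir495 and Mir376c were not. All 33 had a difference above 0, and 14 of them passed the test (50 of all 11621 genes, 0.430%, were called higher). The 4 swim arrays lay above all 4 controls for 28 of the 33 (6.00% of all genes). The median difference was 0.57 on the log2 scale, against -0.02 for all genes, and the members ranged from 0.15 (Mir666) to 0.99 (Mir323). The mean over the 33 genes was 7.26, 7.24, 7.32 and 7.32 in controls 33 to 36 and 7.81, 7.93, 7.94 and 7.78 in swim 37 to 40, with no overlap and with swim 40 the lowest of the swim arrays. The group was delimited by RefSeq gene order after its values had been seen, so its counts describe it.

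The mature sequences of the 8 genes of the interval whose call held in every fit that leaves out an array are printed first, from RefSeq (GRCm38.p6). Each is 5′ to 3′, with the seed, bases 2 to 8, in capitals. A probe set is named for the microRNA gene, and tells apart neither the 2 arms of a hairpin nor the primary transcript from the mature RNA; so both arms are shown.
mmu-miR-341-5p (chr12:109611521-109611541, plus strand): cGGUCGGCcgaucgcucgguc
mmu-miR-341-3p (chr12:109611556-109611576, plus strand): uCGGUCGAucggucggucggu
mmu-miR-370-5p (chr12:109618270-109618289, plus strand): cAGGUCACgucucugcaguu
mmu-miR-370-3p (chr12:109618305-109618326, plus strand): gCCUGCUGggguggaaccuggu
mmu-miR-380-5p (chr12:109711806-109711827, plus strand): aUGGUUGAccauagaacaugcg
mmu-miR-380-3p (chr12:109711842-109711863, plus strand): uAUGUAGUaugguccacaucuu
mmu-miR-323-5p (chr12:109712523-109712544, plus strand): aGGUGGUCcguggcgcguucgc
mmu-miR-323-3p (chr12:109712558-109712578, plus strand): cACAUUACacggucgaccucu
mmu-miR-329-5p (chr12:109713503-109713524, plus strand): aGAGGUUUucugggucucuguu
mmu-miR-329-3p (chr12:109713541-109713562, plus strand): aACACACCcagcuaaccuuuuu
mmu-miR-679-5p (chr12:109715587-109715608, plus strand): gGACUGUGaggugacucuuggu
mmu-miR-679-3p (chr12:109715624-109715645, plus strand): aGCAAGGUccuccucacaguag
mmu-miR-543-5p (chr12:109717269-109717289, plus strand): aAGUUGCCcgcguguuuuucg
mmu-miR-543-3p (chr12:109717304-109717325, plus strand): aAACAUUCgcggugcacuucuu
mmu-miR-376b-5p (chr12:109723471-109723492, plus strand): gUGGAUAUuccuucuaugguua
mmu-miR-376b-3p (chr12:109723508-109723528, plus strand): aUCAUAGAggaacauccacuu

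The genes that moved together do not share 1 seed. RefSeq gives 63 mature sequences for the 33 measured genes, all on the plus strand, with 62 distinct seeds. The 1 seed held by 2 genes belongs to the neighbours Mir379 and Mir411, which had differences of 0.97 and 0.84 and did not pass the test (adjusted p = 0.062 and 0.099, limma).
mmu-miR-379-3p: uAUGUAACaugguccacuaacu
mmu-miR-411-3p: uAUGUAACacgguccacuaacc
The called genes Mir300 and Mir381 hold near-identical 3′ arms. Counted from 1 at the 5′ end, with miR-300-3p first, they differ at G4A inside the seed and at U21G and C22U at the 3′ end.
mmu-miR-300-3p (chr12:109724363-109724384, plus strand): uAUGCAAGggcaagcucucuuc
mmu-miR-381-3p (chr12:109726870-109726891, plus strand): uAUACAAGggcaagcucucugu
Mir134, called as well, gives a microRNA known to limit the size of dendritic spines.
mmu-miR-134-5p (chr12:109734145-109734166, plus strand): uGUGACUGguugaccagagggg

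Mir543 had the smallest p of the interval. It read 8.67, 8.81, 8.60 and 8.58 in controls 33 to 36 and 9.39, 9.48, 9.45 and 9.47 in swim 37 to 40. The swim arrays lay close together and above all controls, a difference of 0.78 ± 0.06 (SE, adjusted p = 0.0038, limma). Mir323 showed the largest difference. It read 8.67, 8.47, 8.83 and 8.51 in the controls and 9.55, 9.63, 9.74 and 9.53 in the swim arrays. Its difference was 0.99 ± 0.09 (adjusted p = 0.0052, limma), a 1.99-fold change, and the groups did not overlap. Mir370, which lies with Mir341 in the span of the noncoding RNA Rian, read 5.98, 6.04, 6.21 and 6.02 in the controls and 7.07, 6.85, 6.88 and 6.93 in the swim arrays. Its difference was 0.87 ± 0.07 (adjusted p = 0.0038, limma). Mir380 read 6.79, 6.79, 6.74 and 6.62 in the controls and 7.67, 7.53, 7.67 and 7.45 in the swim arrays, a difference of 0.85 ± 0.07. Mir134 read 8.22, 8.25, 8.51 and 8.39 in the controls and 8.88, 8.90, 8.96 and 8.91 in the swim arrays, a difference of 0.57 ± 0.07 (adjusted p = 0.019, limma). For all of these, swim 40, the array low in forebrain genes, lay with the other swim arrays.

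The other called members were Mir679 (0.88), Mir376b (0.79), Mir329 (0.71), Mir341 (0.70), Mir300 (0.69), Mir381 (0.61), Mir667 (0.54), Mir485 (0.44) and Mir673 (0.40). In gene order the called members ran from Mir673, near Meg3, to Mir485. None of the 7 measured genes between Mir485 and Dio3 was called, nor were Mir337, Mir540 and Mir665 between Mir673 and Mir341. Further members inside that stretch, such as Mir379 and Mir539, were not called either. These ends are not a boundary, since Mir337, Mir540, Mir665 and also Mir496a, beyond Mir485, were called higher without swim 40. The 5 members whose groups overlapped were Mir411 (0.84), Mir376a (0.31), Mir541 (0.25), Mir409 (0.23) and Mir666 (0.15). Of the other transcripts there, Meg3, the long noncoding RNA that opens the unit, read 11.0, 11.0, 10.9 and 10.9 in the controls and 11.2, 11.2, 11.3 and 11.1 in the swim arrays. Its groups did not overlap, but its difference of 0.25 ± 0.05 did not pass (adjusted p = 0.085, limma), and was 0.03 on the values as deposited. The small nucleolar RNA AF357355 had a difference of 0.57 ± 0.11 (adjusted p = 0.065, limma). Dlk1, the protein-coding gene at one end, expressed from the paternal chromosome, had a difference of 0.04 ± 0.42 (adjusted p = 0.97, limma), and Dio3 at the other end was below the filter.

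**Figure D3:**
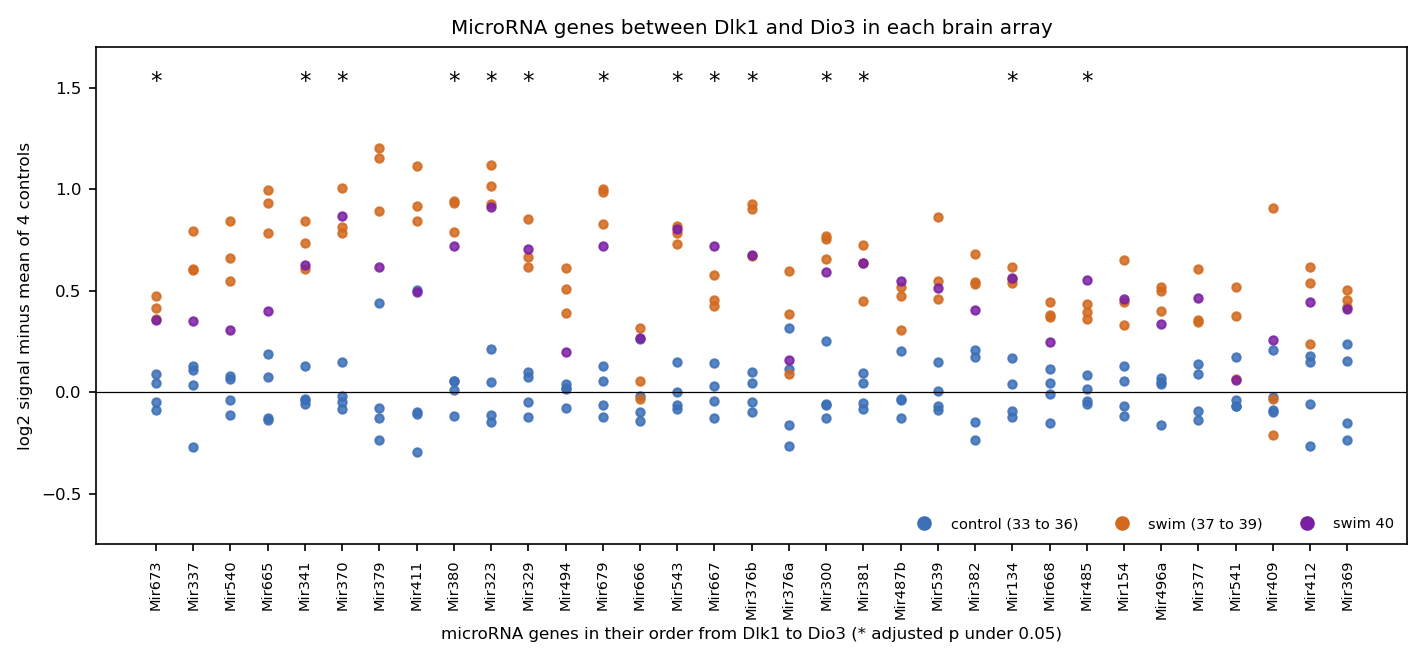
Log2 signal of each brain array minus the mean of the 4 controls (y axis) for the 33 measured microRNA genes in their order from Dlk1 to Dio3 (x axis); an asterisk marks an adjusted p under 0.05. The swim points lie above 0 for nearly all genes. Swim 40 is the lowest swim array for some genes, such as Mir665 and Mir379, and the highest for others, such as Mir667 and Mir485.

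The number of calls in the interval moved with single arrays. Without swim 40, 20 of the 33 were called and the median was 0.59; without control 33, 34, 35 or 36 the count was 8, 8, 9 and 9, and without swim 38 or 39 it was 8 and 8. All 33 differences stayed above 0 in each of these fits. On the values as deposited all 33 were above 0 with a median of 0.40, against -0.20 for all genes, and 0 passed the adjusted test; centred on array medians the median was 0.50 and 13 passed. The spread of the deposited log2 values was narrower in the swim arrays, with an interquartile range of 3.00 to 3.19 against 3.11 to 3.58 in the controls. With that range as a covariate 32 of 33 were above 0 and 3 passed.

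Outside the interval, 6 of 60 measured microRNA genes rose, against 0.430% of all genes, and 54 did not pass; the count was 6 without swim 40 as well. 51 of the 60 had a difference above 0, against 5150 of all 11621 genes, and the median was 0.26, or 0.21 without swim 40. These genes too were grouped after their values had been seen. Mir598 had the smallest p of all genes in brain: it read 7.16, 7.41, 7.38 and 7.40 in the controls and 8.39, 8.34, 8.49 and 8.44 in the swim arrays. The groups lay far apart for their spread, with a difference of 1.08 ± 0.07 (adjusted p = 0.0016, limma). It lies within Xkr6, a protein-coding gene of the Kell blood group complex related family, whose own difference of 0.84 ± 0.21 did not pass (adjusted p = 0.12, limma). The other 5 were Mir690 (0.94), Mir505 (0.75), Mir330 (0.60), Mir138-1 (0.55) and Mir674 (0.55); miR-138 is, like miR-134, known for limiting dendritic spine size. Eml2, which spans Mir330, and Fgf12, which spans Mir690, had differences of -0.15 and -0.08 and were not called. Of the called microRNA genes 19 of 20 matched a RefSeq mature sequence. Below the filter, 133 of 207 other microRNA genes were above 0, with a median of 0.05.

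Genes known mainly from sense organs and hair also read slightly higher in the swim arrays. Of olfactory, vomeronasal and taste receptor and keratin-associated genes, 1233 are on the array; 32 were above the filter, 31 of these had a difference above 0, against 5150 of all 11621 genes, and their median was 0.34, or 0.33 without swim 40. Only Vmn1r86, a vomeronasal receptor gene, passed (0.56 ± 0.08, adjusted p = 0.033, limma), with and without swim 40. Over the 1201 below the filter, 901 were above 0 and the median was 0.07. Whether what moves these genes has a part in the microRNA result was not tested. On the same scale the 33 genes between Dlk1 and Dio3 had a median of 0.57. The 60 other microRNA genes had one of 0.26, below the 0.34 of the sensory and keratin genes.

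The called genes with the largest fold changes in brain were noncoding. 9530091C08Rik read 7.32, 7.27, 7.17 and 7.02 in the controls and 8.50, 9.20, 9.01 and 9.65 in the swim arrays. Swim 40 was the highest and swim 37 the lowest of the swim arrays, and the difference was 1.90 ± 0.21 (adjusted p = 0.010, limma). It lies within Rora, a nuclear receptor gene that activates clock genes and is strongly used in cerebellum, whose own difference was 0.10 ± 0.19. Phxr4 (1.43 ± 0.18) lies within Maml2, 1700086D15Rik (1.43 ± 0.13) within Arhgap44, 2310067E19Rik (1.32 ± 0.19) within Nfib and Tbrg3 (0.94 ± 0.09) within Tcf20. None of these spanning genes passed, and their differences were 0.24, 0.03, 0.20 and 0.06. Lncpint, a noncoding RNA induced by p53, read 8.88, 8.99, 9.06 and 9.04 in the controls and 9.96, 10.1, 9.95 and 9.85 in the swim arrays, a difference of 0.96 ± 0.06 (adjusted p = 0.0016, limma). Of 112 measured long noncoding genes, 60 were above 0, 7 were called higher (0.430% of all genes), 5 without swim 40, and the median was 0.03, against 0.42 for all 93 measured microRNA genes.

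The 21 protein-coding genes that rose did so by modest amounts, between 0.35 and 0.77 on the log2 scale. Without swim 40, 30 protein-coding genes were called higher and 14 lower. Acta2, the smooth muscle actin of arterioles, read 7.65, 7.52, 7.57 and 7.83 in the controls and 8.71, 8.17, 8.44 and 8.28 in the swim arrays. All swim arrays were above all controls, with the highest in swim 37, and the difference was 0.76 ± 0.12 (adjusted p = 0.047, limma). Hmcn1, an extracellular matrix protein, differed by 0.77 ± 0.11, Atp13a5, a transport ATPase known as a marker of brain pericytes, by 0.63 ± 0.08, and Flna, which crosslinks actin, by 0.42 ± 0.06. Utrn, a homologue of dystrophin, differed by 0.44 and Pkd1, a membrane protein of primary cilia, by 0.59.

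Scube2, a secreted protein that helps release hedgehog ligands, read 7.38, 7.45, 7.36 and 7.22 in the controls and 7.94, 7.91, 7.90 and 7.90 in the swim arrays. Its swim arrays were nearly level, and the difference was 0.56 ± 0.06 (adjusted p = 0.0069, limma). Ago3, an Argonaute protein that binds microRNAs, read 8.71, 8.79, 8.84 and 8.80 in the controls and 9.20, 9.21, 9.17 and 9.35 in the swim arrays, a difference of 0.45 ± 0.06 (adjusted p = 0.022, limma). The other rises were Apex2, a DNA repair endonuclease (0.46), Sox21, a transcription factor of neural progenitors (0.45), Nfat5, the transcription factor of the osmotic stress response (0.38), the histone deacetylase Hdac7 (0.35), the bile acid receptor Gpbar1 (0.36), the sialyltransferase St6galnac3 (0.51), the leukocyte sialoprotein Spn (0.45), the ribosome assembly factor Mdn1 (0.40), the lipid transfer protein Vps13d (0.35), the ciliary gene Cplane1 (0.38), Ralgapa2 (0.35), a regulator of Ral GTPases, and E130308A19Rik (0.35).

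6 genes fell (0.0516% of all genes), each by less than 2-fold. Pcsk1n encodes proSAAS, a secretory granule protein and the precursor of an inhibitor of prohormone convertase; it read 12.3, 12.4, 12.4 and 12.4 in the controls and 11.8, 11.6, 11.7 and 11.6 in the swim arrays. Its difference was -0.68 ± 0.07 (adjusted p = 0.0069, limma), and it was the 1 fall that held without any single array. Chac1, an enzyme that degrades glutathione and is induced through ATF4, read 7.36, 7.20, 7.30 and 7.20 in the controls and 6.85, 6.65, 6.69 and 6.81 in the swim arrays, a difference of -0.52 ± 0.07 (adjusted p = 0.023, limma). Cyba, a subunit of the superoxide-producing NADPH oxidase, had a difference of -0.62 ± 0.10 (adjusted p = 0.049, limma). The other falls were Dusp28, a phosphatase (-0.42), the zinc finger gene Zfp94 (-0.34) and Tomm40l, a mitochondrial outer membrane pore protein (-0.32).

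**Figure D4:**
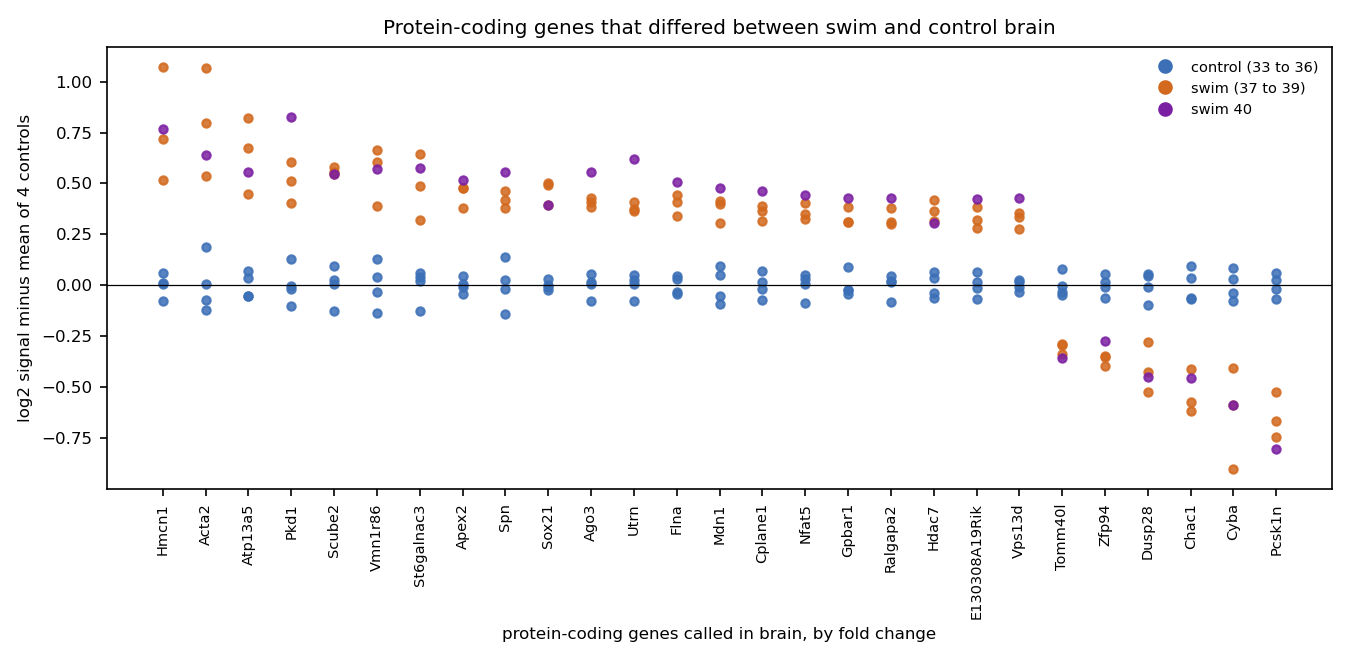
Log2 signal of each brain array minus the mean of the 4 controls (y axis) for the 27 protein-coding genes that passed an adjusted p of 0.05, ordered by fold change. No swim point overlaps a control point; swim 40 is the highest swim array for several rises, such as Pkd1 and Utrn.

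Period genes of the circadian clock read higher in swum brain but did not pass the test. Of 19 measured clock and clock output genes, 0 were called, with or without swim 40, and 13 were above 0, with a median of 0.10; 5 did not overlap between groups, all higher (6.00% of all genes). Per2, a repressor of the clock, read 7.33, 7.71, 7.49 and 7.50 in the controls and 7.89, 8.36, 8.27 and 8.53 in the swim arrays. The groups did not overlap and swim 37 was nearest to the controls; the difference was 0.75 ± 0.14 (adjusted p = 0.062, limma). It passed without swim 37 (0.88, adjusted p = 0.023) but not without swim 40 (0.67, adjusted p = 0.076). Per3 differed by 0.48 ± 0.08 (adjusted p = 0.054, limma); it passed without swim 37 at 0.55 (adjusted p = 0.027) and not without swim 40 at 0.45 (adjusted p = 0.076). Per1, a further period gene, differed by 0.48 ± 0.09 (adjusted p = 0.064, limma), Ciart, a repressor of Clock and Arntl, by 0.56 ± 0.12 (adjusted p = 0.083, limma) and Nr1d2, a nuclear receptor that represses Arntl, by 0.22 ± 0.08. Arntl, the activator they oppose, differed by -0.13 ± 0.15, and its partner Clock by -0.05 ± 0.07.

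The same contrast was larger in visceral fat, liver and kidney for several clock genes, and that difference was tested as an interaction between organ and treatment. Visceral fat and kidney have 4 controls and 4 swim arrays each, and liver 3 and 4. Ciart differed by 0.56 in brain, 2.95 in visceral fat, 3.29 in liver and 1.67 in kidney; brain minus the other organ was -2.39 ± 0.17, -2.74 ± 0.22 and -1.12 ± 0.27 (adjusted p = 2.8e-06, 3.9e-05 and 0.038, limma). Per3 differed by 0.48 in brain against 2.09, 2.03 and 1.12, and each gap passed. Arntl differed by -0.13 in brain against -2.28, -2.37 and -1.37, and each gap passed. Per2 differed by 0.75 in brain against 1.65, 1.51 and 1.63. Its gap passed narrowly for visceral fat and kidney (adjusted p = 0.045 and 0.043, limma) but not for liver (adjusted p = 0.15, limma). On the values as deposited only 2 of all 11621 genes passed against kidney. The kidney gaps of Ciart, Per3, Arntl and Per2 thus cannot all have passed there. Brain was not the organ with the smallest clock differences throughout. In spleen, for which no interaction was tested, Ciart differed by 0.28, Per1 by -0.08, Per2 by 0.56, Per3 by 0.69 and Arntl by 0.05. The hour at which each organ was taken is not given in the sources used here, and its part in these values was not tested.

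**Figure D5:**
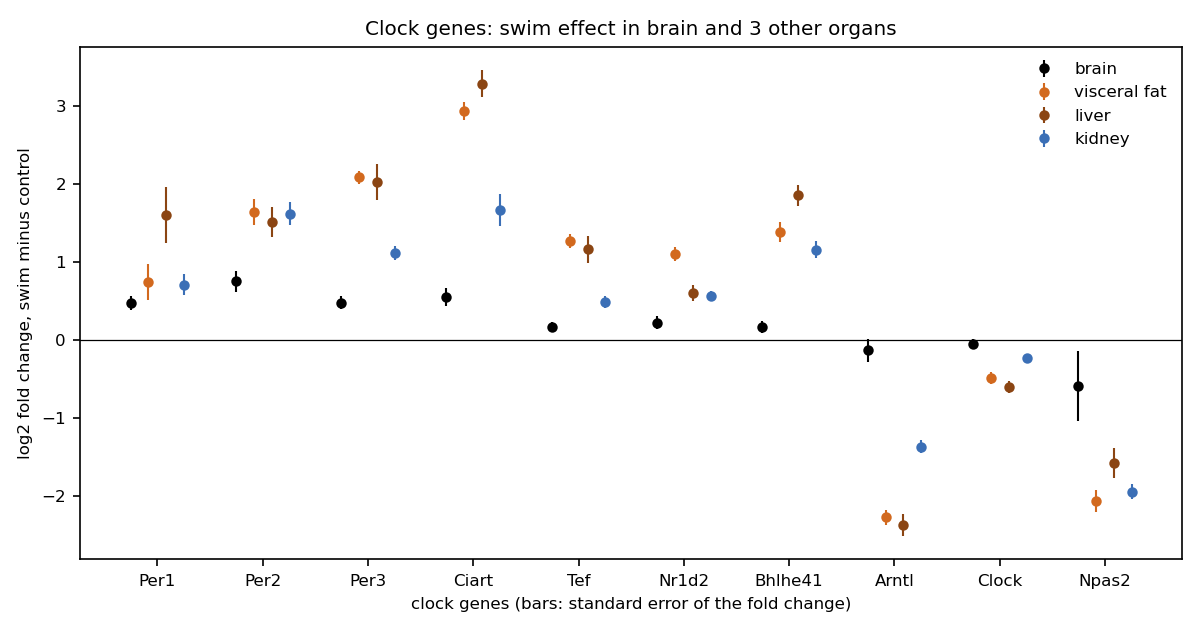
Log2 fold change, swim minus control, of 10 clock genes (x axis) in brain, visceral fat, liver and kidney; bars are the standard error of the fold change. The brain values (black) lie nearest to 0 for each gene shown, for example Ciart at 0.56 in brain and 3.29 in liver.

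Over all genes the brain response differed from that of visceral fat at 510 genes (4.39%; 229 with the brain difference above, 281 below), from liver at 215 (1.85%; 107 and 108) and from kidney at 400 (3.44%; 263 and 137). In visceral fat the 5 genes of smallest adjusted p were Ciart, Per3, Arntl, Mir380 and Tef, a clock output factor. In liver they were Hamp2, a hepcidin gene, at 4.37 in liver and 0.36 in brain, then Ciart, Wee1, a cell cycle kinase under clock control, Bhlhe41 and Arntl. In kidney they were Alg3, the small nucleolar RNAs Snora73a and Snora73b, which are near-identical copies, Eif2b2 and Slc16a6. Without control 33, 34 or 36 or swim 39 the counts were 260, 320, 324 and 275 for visceral fat and 209, 256, 256 and 262 for kidney; for liver they were 110, 130, 132, 143 and 117 without control 33, 34, 35 or 36 or swim 39.

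The median difference of the 33 microRNA genes between Dlk1 and Dio3 was 0.57 in brain, -0.09 in visceral fat, 0.01 in liver and 0.01 in kidney. These values are a description, since the 33 were grouped after their brain values had been seen, and passed the filter through their level in brain. Only 6, 6 and 5 of the 33 probe sets were above the filter in visceral fat, liver and kidney, so that a low level there limits what could move. Mir380 differed by 0.85 in brain and by -0.18, 0.10 and 0.07 in visceral fat, liver and kidney.

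Lists of genes tied to exercise, stress and neuronal activity held 0 or 1 call each, and at 0.482% of all genes called, lists of this length would hold few; the counts were the same without swim 40. Of 22 immediate early genes, 0 were called and the median was -0.18, which was -0.02 without swim 40. Jund, an AP-1 subunit, had a difference of -0.30 ± 0.06 (adjusted p = 0.062, limma), Nr4a3 of 0.59 ± 0.18 and Npas4 of -0.76 ± 0.31. Of 19 neurotrophin and plasticity genes, 0 were called. Ntrk3, the neurotrophin 3 receptor, differed by 0.50 ± 0.13 (adjusted p = 0.14, limma), or 0.37 without swim 40. Vgf, a secreted activity-linked peptide precursor, differed by -0.72 ± 0.28, or -0.41 without swim 40. Of 21 glucocorticoid-responsive genes, 0 were called and the median was -0.02, with Fkbp5 at -0.05 ± 0.17 and Sgk1 at 0.31 ± 0.28. Of 17 heat shock chaperones, 0 were called; Hspb1 differed by 0.60 ± 0.20 with overlapping groups. Of 28 nuclear-encoded respiratory chain genes, 28 proteasome subunits and 23 glycolysis and transport genes, 0 were called, with medians of -0.04, -0.06 and -0.03. Of 22 endoplasmic reticulum stress and ATF4 genes, Chac1 alone was called, and of 18 neuropeptide and granule genes Pcsk1n alone.

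Among cell type lists, microglial genes read lower and endothelial genes higher after swimming, with 0 called in either, with or without swim 40. All 15 measured microglial genes had a difference below 0, with a median of -0.26, and 4 did not overlap, all lower (6.06% of all genes). C1qa, a complement subunit made by microglia, read 7.33, 7.45, 7.45 and 7.32 in the controls and 7.24, 6.85, 7.01 and 6.70 in the swim arrays. Swim 40 was the lowest, and the difference was -0.44 ± 0.11 (adjusted p = 0.12, limma). Without swim 40 the median of the 15 was -0.14. Of 18 endothelial genes, 15 were above 0, with a median of 0.14; Emcn, an endothelial sialomucin, differed by 0.34 ± 0.08 (adjusted p = 0.099, limma), while Cldn5, the tight junction claudin, differed by -0.32 ± 0.08. On the values as deposited the endothelial median was -0.01 and the microglial -0.42, against -0.20 for all genes. Of the 14 measured mural and meningeal genes, Acta2 alone was called, with and without swim 40, 8 were above 0 and the median was 0.02, and Kcnj8, a pericyte potassium channel, had a difference of -0.38 ± 0.08 (adjusted p = 0.083, limma). In bulk RNA fewer cells of a type and less RNA per cell cannot be told apart. The cortical projection neuron list had a median of -0.35, which was -0.06 without swim 40.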

How the data were processed

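Total RNA of brain was read on 4 control and 4 swim Affymetrix whole-transcript mouse arrays. The authors deposited 1 table of linear signal intensity per probe set; the submitters' processing notes name PLIER, a probe set summary, and limma, without versions, and other steps are not given in the sources used here. Of its probe sets, 21086 carry 1 gene symbol and were used, 1867 carry several and 2964 none. Values were taken as log2(signal + 16) and quantile normalized over the 8 arrays. The dimmest 40% of probe sets were left out and the brightest probe set stood for each gene, which left 11621 genes. Groups were compared with limma 3.58.1 (lmFit, eBayes) in R 4.3.3, with Benjamini-Hochberg adjustment over all genes. Brain was set against visceral fat, liver and kidney, each normalized apart, through an interaction term. Levels were not compared across organs. The labels do not say whether organs came from the same mice. The interaction fit treated all arrays as independent, so any such pairing was not modelled. The number of arrays limits the precision. No pair of brain arrays held identical values (0 pairs).

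The members and gene lists were chosen with earlier results of these data known. Named genes are the largest rises and falls among non-overlapping called genes, up to 4 genes of smallest p in a list, clock and region markers, and the 5 genes of smallest adjusted p in each organ comparison; Ddn, Acta1, Xkr6, Meg3, Dlk1, AF357355 and the microRNA group were chosen after their values were seen. On simulated arrays of this size and spread with 11621 genes, 38.8% of changes of 0.4 on the log2 scale, 64.2% of changes of 0.6 and 87.9% of changes of 1 were recovered, and 8 of 135 calls were false. The simulated noise was independent between genes, with no deviant array such as swim 40 and no difference in region mix or signal range. These shares therefore do not measure how reliable the calls in the real arrays are. Alternatives changed the normalization, pseudocount, filter, variance model, covariates and arrays. Figures were drawn with matplotlib 3.10.9.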

Additional observations from a re-analysis of the deposited data

Results flagged for a closer look

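In 19 of 290 groups of 4 arrays, 1 array lay far from the other 3 by Dixon's test; chance flags about 1 in 20 groups. On swim 40 this held for forebrain and interneuron genes, with Nrgn at 6.49, Kcna4 at 5.52, Ddn at 5.21 and Sst, a peptide of interneurons, at 9.59. The microglial genes C1qb at 8.08 and Csf1r at 7.54 were low there too, while Phxr4 at 8.51, Mir505 at 8.93 and Mir690 at 8.87 were high there. On swim 38 Drd1 was high at 9.61 and the clock output gene Hlf at 9.80, and on swim 39 Bhlhe41 was low at 8.48. On control 36 Acta1 was high at 8.75 and Bhlhe41 at 8.59. On control 33 Mir598 was low at 7.16 and Mir541 high at 6.62, and on control 35 Mir341 was high at 11.8 and Gpbar1 at 6.40. The mean of the midbrain and hindbrain list was low on control 34, at 7.20. The cause of these values was not tested.

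The swim effect in brain differed from that in another organ, by the interaction test, for the genes that follow, each as brain minus the other organ on the log2 scale. Against visceral fat the values were -2.39 for Ciart, -1.61 for Per3, -0.89 for Per2, -1.10 for Tef, 2.15 for Arntl, 1.09 for Mir323, 0.87 for Mir543, 1.02 for Mir380, 0.72 for Mir370 and 0.74 for Mir598. Against liver they were -4.01 for Hamp2, -2.74 for Ciart, -1.87 for Wee1, -1.69 for Bhlhe41, -1.55 for Per3, 2.24 for Arntl, 0.91 for Mir323, 0.79 for Mir543, 0.74 for Mir380, 0.78 for Mir370 and 1.01 for Mir598. Against kidney they were -1.12 for Ciart, -0.64 for Per3, -0.87 for Per2, 1.24 for Arntl, 0.92 for Alg3, 0.87 for Eif2b2, 0.97 for Slc16a6, -1.29 for Snora73a, -1.37 for Snora73b, 1.03 for Mir323, 0.77 for Mir543, 0.78 for Mir380, 1.12 for Mir370 and 1.23 for Mir598. The microRNA genes in these lists were named for their differences in brain, so their values are a description. On the values as deposited only 2 of all genes passed against kidney, so most of the kidney values listed did not pass there. Of the 33 measured between Dlk1 and Dio3, only 6, 6 and 5 were above the filter in visceral fat, liver and kidney.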

How the results depend on the processing

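No paired analysis was possible because the numbers in the titles run on from control to swim arrays and no number is shared. The main count of 56 brain calls, with 14 in the Dlk1 to Dio3 interval, was 3 and 0 on the values as deposited, 29 and 8 with the lowest 60% of probe sets left out, 129 and 25 in 1 fit of all 54 arrays, 574 and 27 with the cerebellar granule list as a covariate, 20 and 9 with the choroid plexus list, and 6 and 3 with the signal range. Array weights gave 3122 and 31 with limma's default estimator, which did not converge and put a weight of 25.5 on swim 39 and 0.169 on swim 40. Alternatives chosen after seeing the data gave 2285 and 31 with gene-by-gene array weights (9.14 on swim 39), 24 calls without swim 40 and control 36, and 17 and 2 on deposited values without swim 40. Leaving out 1 array gave 15 to 78 calls, and 8 to 20 in the interval. Non-overlapping genes numbered 1401 in the main fit, 274 on the values as deposited and 2016 centred on array medians. Counts against visceral fat, liver and kidney were 25, 22 and 2 on the values as deposited and 1097, 100 and 202 centred on array medians; liver gave 341 with each tissue's own spread. Without 1 brain array they spanned 260 to 577, 110 to 257 and 209 to 499. No reported gene changed direction under an alternative that called it; the cause of the other changes was not tested.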

Other observations

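A further 15 genes differed at least 2-fold between the group means in brain without passing the adjusted test, and 12 of the 15 were under 2-fold without swim 40. The 10 lower ones include forebrain genes that were near the floor on swim 40 alone: Tmem151a, a membrane protein, read 11.1, 11.2, 11.0 and 11.1 in the controls and 11.1, 11.0, 10.9 and 5.99 in swim 37 to 40, and Pou3f2, a transcription factor of upper-layer cortical neurons, read 6.26 on swim 40 and 10.7 to 10.8 on the other swim arrays. Kcna4, a potassium channel, read 5.52 on swim 40 and 10.9 to 11.3 on the other swim arrays. Among the 5 higher ones, the noncoding 4930578G10Rik did not overlap between groups (1.13, adjusted p = 0.079, limma). Nor did Unc13c (1.11, adjusted p = 0.37, limma), for which control 36 deviated. It read 8.44 there, 10.9 to 11.1 in the other controls and 11.2 to 11.9 in the swim arrays. Rln3, a relaxin peptide of a small hindbrain nucleus, was raised on swim 37 and 39 alone, at 9.16 and 8.77 against 5.43 to 6.95. Nsun7, an RNA methyltransferase relative, read 8.85, 8.56, 8.89 and 6.16 in swim 37 to 40 and 8.39 in control 34, against 5.96 to 6.28 in the other controls.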
